A study of Mus musculus with 10 samples.

Results

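The nuclear-encoded subunits of the mitochondrial respiratory chain and ATP synthase, with the assembly factors that share their gene names, were followed across 3 groups of sorted mouse mammary epithelial cells. Members were all genes whose symbol begins with Nduf, Uqcr, Atp5 or Sdh, or that carry a Cox4 to Cox8 symbol. Each was read from a probe set that names a single gene, the brightest on average where a gene had several. The rule found 93 genes among 19935 on the array. A filter on dim probe sets passed 91 of them, among 15815 genes tested, and left out Cox7b2 and Sdhaf4. By complex, the members were 34 of complex I, 4 of complex II, 8 of complex III, 19 of complex IV, 17 of ATP synthase (complex V) and 11 assembly factors. Ndufa4 and Ndufa4l2 were counted with complex IV, where the Ndufa4 protein is now placed.

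The respiratory chain passes electrons from NADH, through complex I, and from succinate, through complex II, by way of ubiquinone to complex III, cytochrome c and complex IV, which reduces oxygen. Complexes I, III and IV pump protons across the inner mitochondrial membrane, and ATP synthase uses the gradient to make ATP. Most subunits are encoded in the nucleus, while the mitochondrial genome adds a few subunits to every complex except complex II. Several complex IV subunits exist as a widely expressed form and a paralogue restricted to tissues such as muscle, lung or testis. In the mammary duct, an inner layer of luminal cells, many of which sense hormones, lies on a contractile basal layer that also contains the stem cells.

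All samples came from virgin female littermates aged 8 to 12 weeks, either control or Pygo2 SSKO. Pygo2 is a PHD-finger co-factor of beta-catenin. The labels neither spell out SSKO nor name a Cre driver, while the title of the series speaks of Pygo2-null cells. Glands were digested with collagenase, cells carrying CD31, CD45 or TER119 were gated out, and the remainder was sorted by CD29, CD24 and CD61. There were 4 control basal arrays (CD29-high, CD24-positive cells, which hold the mammary stem cells and basal cells), 3 SSKO basal arrays of the same gate, and 3 control luminal arrays (CD29-low, CD24-positive, CD61-negative mature luminal cells). SSKO luminal cells were not analysed here. The samples are labelled biological replicates without the number of animals in each, so a p-value here reflects only how far these samples spread, which may be partly technical. RNA was measured on Affymetrix arrays. Values below are log2(intensity + 16), and the small number of arrays limits the precision.

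The labels were checked against defining markers. Pygo2 read 8.30, 9.09, 8.11 and 8.91 in the control basal group and fell to 6.99, 5.94 and 5.86 in the SSKO group, a difference of -2.34 ± 0.32 (SE, adjusted p = 0.0441, limma). All 8 basal markers tested were lower and all 7 mature luminal markers were higher in luminal than in control basal arrays. The third luminal array stood apart, with a summed intensity of the basal markers of 11378 against 2511 and 1749 in the other luminal arrays and 56573 to 62360 in the basal arrays. Endothelial markers were brightest in control basal array 1, SSKO array 1 and SSKO array 3, with summed intensities of 13810, 27472 and 15368 over 12 genes, against 4186 to 6532 elsewhere. All 8 fibroblast markers were lower in luminal arrays, with sums of 1515 to 6855 against 11973 to 28290 in basal arrays. Markers of brown fat and skeletal muscle, tissues rich in mitochondria, had sums of 335 to 695 over 5 genes and 1434 to 2116 over 7 genes, and no luminal sum exceeded the highest basal one. The muscle sums of luminal arrays were 1517 to 1622, against 1434 to 1560 in control basal and 1722 to 2116 in SSKO arrays. Of the luminal progenitor and alveolar markers 5 of 7 were higher in luminal than control basal cells, among them Kit (3.06), Elf5 (2.75) and Ltf (3.79). Of the pericyte markers 5 of 7 were lower and 1 higher, and of the immune markers 3 of 6 were lower, among them Cd74 (-2.44). The part of these other cells in the differences of the respiratory genes was not tested. In bulk RNA a different mix of cells and a different RNA level per cell cannot be told apart.

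Promoter sequences are shown for 5 members, because they hold letters of motifs that belong to known regulators of respiratory genes. The 5 include members called higher in luminal cells, a member called lower (Ndufaf4) and a member not called (Atp5g3). RefSeq (GRCm38.p6) gave a window from 250 bases before to 50 bases after the start for 77 of the 93 members, 82 windows in all. The 250 bases before the start are printed 5′ to 3′ on the gene's own strand, and capitals mark the motifs found. Sdha and Cox6a1 are a complex II and a complex IV subunit higher in luminal cells. Atp5g2 and Atp5g3 encode the same ring subunit of ATP synthase, and Ndufaf4 is the member that fell most in luminal cells.
Sdha, chr13:74350241-74350490, minus strand: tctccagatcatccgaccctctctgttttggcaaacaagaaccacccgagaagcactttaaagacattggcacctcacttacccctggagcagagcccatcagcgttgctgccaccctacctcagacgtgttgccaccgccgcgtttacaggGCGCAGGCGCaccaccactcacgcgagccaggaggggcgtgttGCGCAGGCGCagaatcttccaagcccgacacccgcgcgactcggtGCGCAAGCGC
Cox6a1, chr5:115348959-115349208, minus strand: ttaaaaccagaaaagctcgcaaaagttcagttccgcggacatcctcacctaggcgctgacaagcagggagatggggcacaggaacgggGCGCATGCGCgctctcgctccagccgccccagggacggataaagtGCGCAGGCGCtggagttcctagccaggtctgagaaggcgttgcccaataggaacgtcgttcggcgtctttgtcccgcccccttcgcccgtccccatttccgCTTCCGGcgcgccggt
Atp5g2, chr15:102671048-102671297, minus strand: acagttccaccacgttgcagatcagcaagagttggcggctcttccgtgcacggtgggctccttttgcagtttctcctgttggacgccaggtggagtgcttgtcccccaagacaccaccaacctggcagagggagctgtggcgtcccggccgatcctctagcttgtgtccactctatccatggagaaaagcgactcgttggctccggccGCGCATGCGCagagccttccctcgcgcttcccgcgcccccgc
Atp5g3, chr2:73911327-73911576, minus strand: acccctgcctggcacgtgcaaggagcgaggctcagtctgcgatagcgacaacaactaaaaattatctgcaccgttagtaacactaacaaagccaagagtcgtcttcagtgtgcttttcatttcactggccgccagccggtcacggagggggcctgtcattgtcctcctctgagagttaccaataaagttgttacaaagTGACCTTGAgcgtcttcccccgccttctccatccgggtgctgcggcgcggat
Ndufaf4, chr4:24897833-24898082, plus strand: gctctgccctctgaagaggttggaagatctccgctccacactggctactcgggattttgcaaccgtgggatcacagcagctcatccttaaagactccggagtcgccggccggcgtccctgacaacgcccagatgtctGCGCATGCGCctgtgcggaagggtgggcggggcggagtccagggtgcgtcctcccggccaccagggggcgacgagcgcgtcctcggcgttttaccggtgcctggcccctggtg

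The capitals in Sdha, Atp5g2 and Ndufaf4 are matches to the core bound by NRF1, a transcription factor of many respiratory genes. Its letters are GCGCA and GCGC with any 1 base between them. Sdha holds 3 such matches and Cox6a1 holds 2, followed by the reverse complement of CCGGAAG, the core of ETS-family sites. In Atp5g3 they mark the reverse complement of TCAAGGTCA, the site of the estrogen-related receptors. Motifs were searched on both strands over the whole 300-base windows. Genes were counted, each with a motif if any of its windows held it. The NRF1 core occurred in 20 of 77 members with a window (26.0%), against 9.27% of 12459 tested genes with a window and 5.19% of 27025 genes in all. CCGGAAG occurred in 21 (27.3%), against 16.1% of tested genes, whereas its longer form CCGGAAGT occurred in 5 (6.49%) against 7.17%. TCAAGGTCA was found in 2 members, Atp5g3 and Sdhd (2.60% against 0.337%), and a YY1 motif, AAGATGG followed directly by CGG, in 5 (6.49% against 1.81%). Within the members, the NRF1 core stood in 9 of the 44 called higher in luminal cells that had a window, in 9 of the 29 not called and in 1 of the 2 called lower. These are matches of letters, not measured binding, and the motifs were picked with results of these data known. Windows were not matched on base composition.

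Transcripts of the respiratory chain were higher in luminal than in basal cells, with called members in every complex. Of the 91 members tested, 50 were higher in control luminal than in control basal cells and 2 were lower at an adjusted p under 0.05 (limma, adjusted over all genes tested). Across all genes tested, 24.6% were called higher and 19.7% lower. The median member difference was 0.49, which is 1.40-fold, against 0.07 for all genes. A positive difference was seen for 83 of 91 members (all genes 57.1%). For 39 members every luminal array lay above every control basal array (all genes 25.8%), and for 2 every luminal array lay below (20.5%). The count rests partly on single arrays. It was 31 without luminal array 1 (20.7% of all genes then called higher) and 33 without luminal array 2 (21.0%), and the 31 and the 33 were all among the 50. Without luminal array 3, the one with more basal marker signal, it was 54 (all genes 23%), of which 46 were among the 50.

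**Figure D1:**
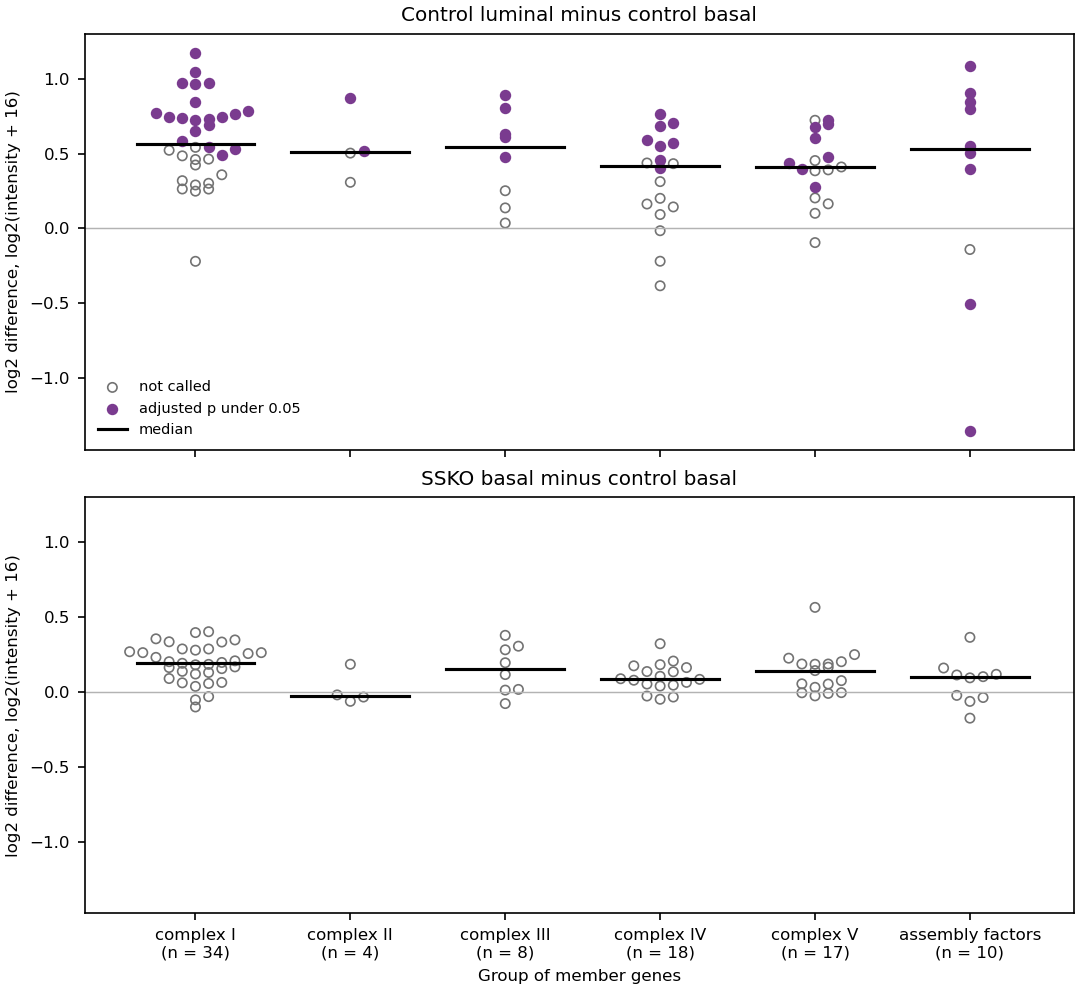
Difference in log2(intensity + 16) for each of the 91 members tested, grouped by complex, for control luminal minus control basal cells (top) and SSKO basal minus control basal cells (bottom). Filled points have a limma adjusted p under 0.05 and black lines are group medians; the medians at the top lie between 0.41 and 0.56, and no point is filled at the bottom.

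Complex I, the NADH-oxidising entry point of the chain, had 20 of 34 members higher and none lower, with a median difference of 0.56. Its core subunits, which carry the flavin and the iron-sulfur clusters, included 5 of 6 called higher, with a median of 0.73. Among the 28 accessory subunits 15 were called, with a median of 0.54. Ndufa7, an accessory subunit, had the largest rise of any member tested. Its log2 values were 9.46, 9.26, 9.58 and 9.34 in control basal, 9.55, 9.65 and 9.60 in SSKO basal and 10.73, 10.65 and 10.36 in luminal arrays. The luminal arrays lay clear of all basal arrays, and SSKO values lay within or just above the control basal range. The difference was 1.17 ± 0.13 (SE), a 2.26-fold rise (adjusted p = 2.19e-05).

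Ndufv2, a core subunit with an iron-sulfur cluster in the NADH-oxidising module, read 11.23, 10.35, 10.57 and 10.88 in control basal, 11.02, 10.97 and 10.90 in SSKO basal and 11.73, 11.95 and 11.50 in luminal arrays. It was 0.97 ± 0.19 higher in luminal cells (adjusted p = 0.00177). Ndufv1, which holds the flavin of the same module, rose by 0.58 ± 0.15 (adjusted p = 0.00788), and the accessory Ndufv3 by 0.96 ± 0.15 (adjusted p = 3.41e-04). All 3 subunits of the tip of the complex named Ndufv were thus called in luminal cells. Ndufs1, the core subunit that passes electrons on from there, differed by 0.52 ± 0.23 and was not called (adjusted p = 0.0843). Its control basal values spread from 8.73 to 9.77, and array 1 exceeded 2 of the 3 luminal values of 9.64, 9.83 and 9.52. Without that array it was called, at 0.73 (adjusted p = 0.00491).

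Ndufa6 and Ndufab1 also rose. Ndufab1 is the mitochondrial acyl carrier protein, a subunit of complex I that also serves lipoic acid and iron-sulfur cluster synthesis, and Ndufa6 is an LYR-motif subunit that binds it. Ndufa6 read 10.09, 9.63, 10.36 and 10.23 in control basal, 10.03, 10.47 and 10.54 in SSKO basal and 11.18, 11.24 and 10.95 in luminal arrays, a rise of 1.05 ± 0.19 (adjusted p = 8.84e-04). Ndufab1 rose by 0.97 ± 0.23 (adjusted p = 0.00491), from 10.14, 9.17, 9.25 and 9.98 to 10.61, 10.70 and 10.51. The groups did not overlap for either gene, although control basal values of Ndufab1 spanned nearly a whole log2 unit. The other complex I members called lay between 0.49 for Ndufb11 and 0.84 for Ndufa13, and included the core iron-sulfur subunits Ndufs7 and Ndufs8 at 0.74 and 0.75. The Ndufb11 call was lost without luminal array 1 or 2 (adjusted p = 0.0849 and 0.0771), and that for Ndufs8 without control basal array 2, 3 or 4 or luminal array 1 or 2 (0.0551 to 0.129). Of the 9 Ndufb subunits, all of the membrane arm, Ndufb11 was the 1 called. The 14 complex I members not called had differences from -0.22 to 0.54. The single negative one was Ndufa11, a membrane-arm subunit, at 11.30, 10.61, 10.43 and 10.57 in control basal and 10.62, 10.55 and 10.34 in luminal arrays (adjusted p = 0.436).

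**Figure D2:**
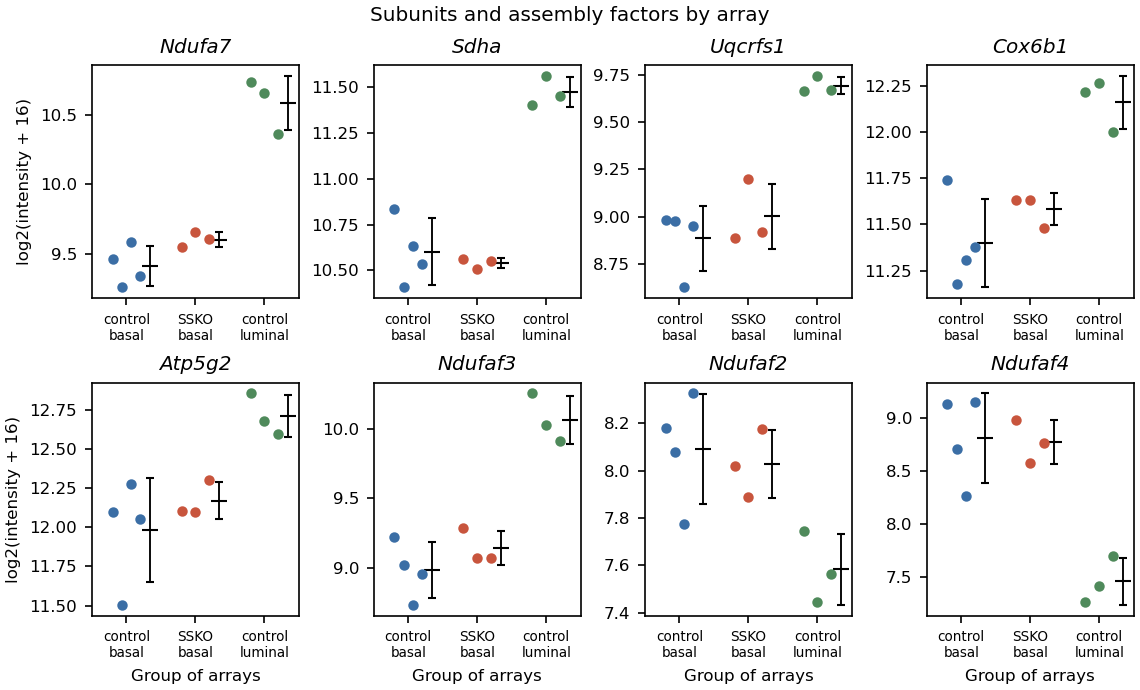
Log2(intensity + 16) in each of the 10 arrays for 8 members, with points by array, horizontal bars at the group mean and vertical bars of 1 SD (n = 4 control basal, 3 SSKO basal, 3 control luminal); each panel has its own axis, which does not start at 0. The 3 luminal arrays lie above all 4 control basal arrays for 6 genes and below them for Ndufaf2 and Ndufaf4.

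Complex II, succinate dehydrogenase, belongs to both the chain and the tricarboxylic acid cycle and consists of 4 nuclear subunits. Both catalytic subunits were called higher in luminal cells, and both membrane anchors were not. Sdha, the flavoprotein whose promoter is printed above, read 10.84, 10.41, 10.63 and 10.53 in control basal, 10.56, 10.51 and 10.55 in SSKO basal and 11.40, 11.56 and 11.45 in luminal arrays. The luminal arrays lay clear of both basal groups, at a difference of 0.87 ± 0.12 (1.83-fold, adjusted p = 1.47e-04). Sdhb, the iron-sulfur subunit, rose by 0.52 ± 0.18 (adjusted p = 0.0399). Control basal array 1, at 10.43, exceeded luminal array 3, at 10.28, and the call for Sdhb was lost without control basal array 2, 3 or 4 or luminal array 1 or 2 (adjusted p = 0.0620 to 0.130) and in the compared groups alone (0.0644).

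Sdhc, an anchor subunit, read 11.48, 11.20, 11.38 and 10.68 in control basal and 11.87, 11.64 and 10.97 in luminal arrays, a difference of 0.31 ± 0.27 (adjusted p = 0.401). Sdhd, the other anchor, read 10.06, 9.53, 9.41 and 9.51 against 10.45, 10.32 and 9.63, a difference of 0.50 ± 0.22 (adjusted p = 0.0848). For both anchors luminal array 3 fell within the control basal range. Sdhd passed the threshold without luminal array 3, at 0.76 (adjusted p = 0.00974), and without control basal array 1, at 0.65 (adjusted p = 0.0259).

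In complex III, which moves electrons from ubiquinol to cytochrome c, 5 of 8 members were higher in luminal cells and none was lower, with a median of 0.54. Uqcrfs1, the Rieske iron-sulfur protein that takes the first electron from ubiquinol, read 8.98, 8.98, 8.63 and 8.95 in control basal, 8.89, 9.20 and 8.92 in SSKO basal and 9.67, 9.74 and 9.67 in luminal arrays. The luminal values lay within 0.08 of each other and well above both basal groups, at 0.81 ± 0.13 (adjusted p = 4.09e-04). Of the large core proteins on the matrix side, Uqcrc2 rose by 0.48 ± 0.14 (adjusted p = 0.0143), while Uqcrc1 differed by 0.14 ± 0.18 and was not called (adjusted p = 0.591). The Uqcrc2 call was lost without luminal array 2 (adjusted p = 0.0668). The small accessory subunits Uqcr10 (0.63 ± 0.16, adjusted p = 0.00685) and Uqcrb (0.61 ± 0.22, adjusted p = 0.0417) were also higher. For Uqcrb the call was lost on leaving out control basal array 2 or 3 or any luminal array (adjusted p = 0.0556 to 0.132), in the compared groups alone (0.0713) and with quantile normalization (0.0509). Uqcrh, the hinge protein at the cytochrome c docking site, was near 0 at 0.04 ± 0.15 (adjusted p = 0.880).

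Complex IV, cytochrome c oxidase, has widely expressed subunits and restricted paralogues of some of them, and these are given apart. Among its 10 widely expressed subunits, Ndufa4 included, 8 were called higher in luminal cells, with a median of 0.56. None of the 7 restricted paralogues tested was called in either direction, with a median of 0.09. The difference between the 2 kinds was tested only as isoform ratios within arrays, and none passed after adjustment. With so few arrays no single ratio could have passed, so these tests do not decide the question. Among the paralogues, Cox6a2, Cox7a1, Cox8b and Ndufa4l2 were dim, which limits what their small differences show. Cox6b1, on the intermembrane side of the complex, read 11.74, 11.18, 11.31 and 11.38 in control basal, 11.63, 11.63 and 11.48 in SSKO basal and 12.22, 12.27 and 12.00 in luminal arrays. It rose by 0.76 ± 0.15 (1.70-fold, adjusted p = 0.00124), without overlap between luminal and basal arrays.

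Cox4i1 read 10.81, 10.86, 10.83 and 10.68 in control basal, 10.91, 11.07 and 10.73 in SSKO basal and 11.59, 11.46 and 11.05 in luminal arrays. This widely expressed form of subunit 4, which helps to set the enzyme's response to ATP, was 0.57 ± 0.15 higher in luminal cells (adjusted p = 0.00769). Its paralogue Cox4i2, best known from lung, read 8.88, 9.23, 8.91 and 8.82 in control basal, 9.03, 9.11 and 9.15 in SSKO basal and 8.82, 8.70 and 8.70 in luminal arrays, a difference of -0.22 ± 0.12 (adjusted p = 0.184). The common form was thus called higher in luminal cells and the restricted form had a negative difference that was not called.

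Other common subunits were also higher. Cox6a1, whose promoter is printed above, rose by 0.59 ± 0.15 (adjusted p = 0.00819) and Cox8a by 0.45 ± 0.11 (adjusted p = 0.00464), both without overlap. Cox7a2 rose by 0.68 ± 0.18 (adjusted p = 0.00957), but luminal array 3, at 10.68, lay below control basal array 1, at 10.71, and the call was lost without luminal array 1 (adjusted p = 0.0519). Ndufa4 rose by 0.55 ± 0.20 (adjusted p = 0.0442), a call lost when control basal array 2, 3 or 4 or luminal array 1 or 2 was left out (adjusted p = 0.0723 to 0.172), in the compared groups alone (0.0745), without the filter (0.0505) and with quantile normalization (0.0731). Cox5a and Cox5b, subunits on the matrix side, were called at 0.70 ± 0.21 and 0.40 ± 0.13 (adjusted p = 0.0182 and 0.0278). Both calls were lost without luminal array 1 or 2, and that for Cox5b also without control basal array 2 or 3 and in the compared groups alone (adjusted p = 0.0548 to 0.107 over both genes). Cox6c, at 0.16 ± 0.14 (adjusted p = 0.404), and Cox7b, at 0.44 ± 0.17 (adjusted p = 0.0589), were the 2 common subunits not called. Cox7b was called without control basal array 1 (0.58, adjusted p = 0.00605), without luminal array 3 (0.55, adjusted p = 0.0347) and in several other settings. Of the restricted forms, Cox6a2, Cox7a1 and Cox8b, known from heart and skeletal muscle, differed by 0.09, 0.31 and 0.14 (adjusted p = 0.638, 0.119 and 0.526). The Cox7a1 difference passed the threshold without control basal array 2 (0.41, adjusted p = 0.0402). Ndufa4l2, a hypoxia-responsive paralogue of Ndufa4, read 6.66, 7.17, 7.33 and 6.91 in control basal and 6.58, 6.76 and 6.56 in luminal arrays, a difference of -0.38 ± 0.16 (adjusted p = 0.0815). Control basal array 1 was the 1 basal array within the luminal range, and without it the difference was -0.50 (adjusted p = 0.0170). Luminal arrays 1 and 3 and control basal array 1 lay below the filter's limit of 6.74. The gene passed the filter mainly through its brighter basal arrays, so these differences are not exact sizes. Cox7b2, left out as dim, read between 5.62 and 6.17 in all 10 arrays.

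**Figure D3:**
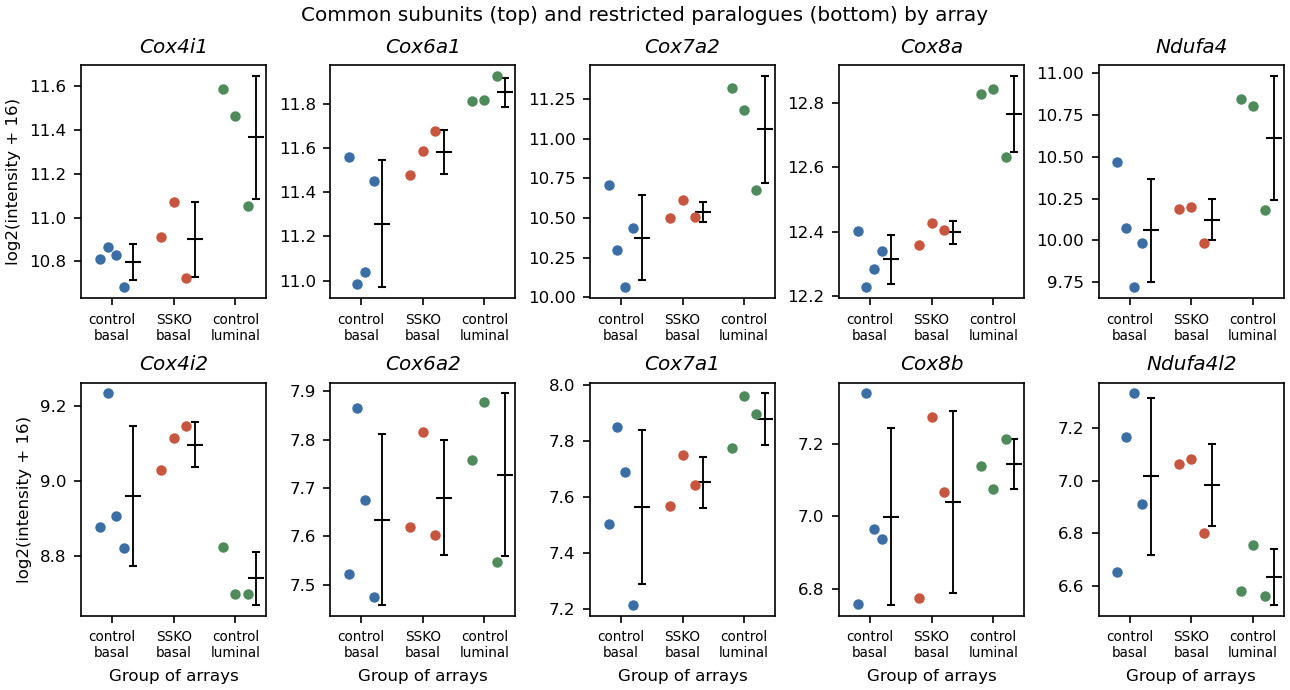
Log2(intensity + 16) in each array for 5 widely expressed complex IV subunits (top) and the restricted paralogue of each (bottom), with group mean and SD bars (n = 4 control basal, 3 SSKO basal, 3 control luminal) and a separate axis, not starting at 0, in each panel. The 3 luminal points lie above all control basal points for Cox4i1, Cox6a1 and Cox8a; in the lower panels Cox4i2 and Ndufa4l2 have their lowest means in luminal cells, differences that were not called.

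The log2 ratio of each restricted paralogue to its common form was compared within arrays, which removes any shift shared by both genes. For Cox4i2 over Cox4i1 the luminal minus control basal difference was -0.79, with ratios of -2.76, -2.76 and -2.35 against -1.93, -1.63, -1.92 and -1.86 and no overlap (exact permutation p = 0.0286, two-sided). That is the smallest p that 4 arrays against 3 allow, and it became 0.286 after adjustment over the 10 ratio tests made. A single ratio could therefore not pass after adjustment, however well its groups were separated. For Ndufa4l2 over Ndufa4 the difference was -0.93 (exact permutation p = 0.0857, adjusted 0.429). The Cox6a2, Cox7a1 and Cox8b ratios differed by -0.50, -0.37 and -0.31, with exact permutation p-values of 0.229, 0.286 and 0.143. All 5 luminal differences were negative, and none passed the threshold after adjustment. Most of the restricted forms were dim. Linear intensities were 78.5 to 145 for Ndufa4l2, 92.2 to 146 for Cox8b, 162 to 219 for Cox6a2 and 132 to 233 for Cox7a1. The array medians over all probe sets were 205 to 228. A dim probe set that hardly moves gives a negative ratio difference wherever the common form rises. Leaving out 1 array gave -0.93 to -0.72 for the Cox4i2 ratio and -1.19 to -0.72 for the Ndufa4l2 ratio. Without control basal array 2 the Cox6a2 and Cox8b ratios differed by -0.33 and -0.17. The Cox7a1 ratio difference was -0.19 without luminal array 1, -0.57 without luminal array 3, and -0.25 and -0.22 without control basal arrays 2 and 3. In SSKO against control basal arrays the 5 differences lay between -0.28 and 0.03, with exact permutation p-values of 0.400 or more.

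ATP synthase had 8 of 17 members higher in luminal cells and none lower, with a median of 0.41. By part of the enzyme, 2 of 5 subunits of the catalytic head were called higher, 1 of 3 genes of the rotating c ring, 2 of 4 of the peripheral stalk and 3 of 5 of the membrane part. The c ring genes gave different results, although Atp5g1, Atp5g2 and Atp5g3 encode the same mature protein behind different import sequences. Atp5g2 read 12.10, 11.50, 12.28 and 12.05 in control basal, 12.10, 12.10 and 12.30 in SSKO basal and 12.85, 12.68 and 12.59 in luminal arrays. It rose by 0.73 ± 0.17 (1.65-fold, adjusted p = 0.00516), and its luminal arrays lay above all basal arrays.

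Atp5g1 read 12.24, 11.90, 11.81 and 12.12 in control basal and 12.05, 11.88 and 11.85 in luminal arrays, a difference of -0.09 ± 0.13 (adjusted p = 0.624). Atp5g3 read 12.10, 11.71, 11.61 and 11.80 against 12.10, 12.06 and 11.74, a difference of 0.16 ± 0.15 (adjusted p = 0.413). Their luminal values lay within or close to the control basal range. The upstream stretches of Atp5g2 and Atp5g3 printed above differ in their capitals, an NRF1 match in Atp5g2 and an estrogen-related receptor match in Atp5g3. Atp5g3 also holds an NRF1 match on the opposite strand, 12 bases after its start and outside the printed stretch. Atp5g1 and Atp5g2 also had further probe sets, whose differences of -0.11 for Atp5g1 and 0.72 for each of the other 2 of Atp5g2 lay close to those used.

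The membrane subunits Atp5j2 (subunit f) and Atp5l (subunit g) rose by 0.61 ± 0.15 (adjusted p = 0.00541) and 0.44 ± 0.16 (adjusted p = 0.0425), and the stalk factor Atp5j (F6) by 0.48 ± 0.14 (adjusted p = 0.0135). The call for Atp5l was lost without control basal array 2 or 3 or any luminal array (adjusted p = 0.0604 to 0.126), and also with the replicate block, the endothelial covariate, quantile normalization or the mean over probe sets (0.0527, 0.09, 0.0685 and 0.0504). That for Atp5j was lost without luminal array 1 or 2 (0.0539 and 0.0614). The head's central shaft subunits Atp5c1 and Atp5d were called at 0.68 ± 0.17 and 0.27 ± 0.10 (adjusted p = 0.00731 and 0.0478, the Atp5d call lost on leaving out any 1 of the 7 arrays compared), and the stalk subunit Atp5h at 0.70 ± 0.18 (adjusted p = 0.00719). The alpha and beta subunits of the head, Atp5a1 and Atp5b, were not called, with differences of 0.10 ± 0.13 and 0.20 ± 0.11 (adjusted p = 0.596 and 0.159).

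Assembly factors build the complexes without being part of the finished enzymes. Of the 10 tested, 7 were higher and 2 lower in luminal cells. Ndufaf3 read 9.22, 9.02, 8.73 and 8.96 in control basal, 9.29, 9.07 and 9.07 in SSKO basal and 10.26, 10.03 and 9.92 in luminal arrays. It rose by 1.08 ± 0.14 (2.12-fold, adjusted p = 9.03e-05). Ndufaf4, the protein partner of Ndufaf3 in early complex I assembly, moved the opposite way. It read 9.14, 8.71, 8.26 and 9.15 in control basal, 8.99, 8.58 and 8.77 in SSKO basal and 7.27, 7.42 and 7.70 in luminal arrays, and fell by 1.35 ± 0.22 on the log2 scale (2.55-fold lower, adjusted p = 3.79e-04). No luminal array reached the lowest basal value of either group, and Ndufaf4 was called lower in each of the alternative settings tried. The brightest luminal array for Ndufaf4 was array 3, the one with more basal marker signal.

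Ndufaf2, which joins a late intermediate of complex I, read 8.18, 8.08, 7.78 and 8.33 in control basal, 8.02, 7.89 and 8.18 in SSKO basal and 7.74, 7.44 and 7.56 in luminal arrays. It fell by 0.51 ± 0.15 (adjusted p = 0.0161), with a gap of only a few hundredths between the groups, and the call was lost without luminal array 2 (adjusted p = 0.0710) and without the 3 arrays bright for endothelial markers (0.0613). Ndufaf1, a factor of the membrane arm, rose by 0.90 ± 0.26 (adjusted p = 0.0133), and Ndufaf7, a methyltransferase acting on a core subunit, by 0.51 ± 0.13 (adjusted p = 0.00830). Ndufaf5, an arginine hydroxylase of complex I assembly, differed by -0.14 ± 0.15 (adjusted p = 0.522).

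All 3 tested assembly factors of complex II were higher in luminal cells. Sdhaf2, which attaches the flavin to Sdha, rose by 0.85 ± 0.22 (adjusted p = 0.00902), from 9.12, 8.21, 8.54 and 8.99 to 9.65, 9.78 and 9.25. Sdhaf1 and Sdhaf3, which act on the iron-sulfur subunit, rose by 0.55 ± 0.16 (adjusted p = 0.0167) and 0.40 ± 0.12 (adjusted p = 0.0223). The Sdhaf1 call was lost without luminal array 1 (adjusted p = 0.0882), and the Sdhaf3 call without control basal array 3 or luminal array 1 or 2 (adjusted p = 0.0542 to 0.0982). Sdhaf4, which helps to join Sdha to Sdhb, missed the filter on dim probe sets because of its low basal signal. It read 6.23, 5.33, 6.27 and 6.48 in control basal, 6.18, 6.40 and 6.67 in SSKO basal and 7.98, 7.93 and 7.63 in luminal arrays. All basal values lay below the filter's limit of 6.74 and all luminal values above it, so no exact difference is given. A second Sdhaf4 probe set, slightly dimmer on average, gave a difference of 0.08, so the 2 probe sets disagree.

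Further probe sets served as a check on the brightest one. Above the filter, 25 other probe sets in 17 member genes gave a difference of the same sign as the one used in 25 of 25. Probe sets of 1 gene may read the same transcripts or near-identical copies of them, so they are not replicates.

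No member was called in either direction between SSKO and control basal cells. In that comparison 5 genes of 15815 were called higher (0.0316%) and 1 lower (0.00632%). An unadjusted p under 0.05 (limma) was reached by 2 of 91 members, against 3.03% of all genes. The members nevertheless lay on 1 side more often than genes at large, with 73 of 91 above 0, against 52.1% of all genes, and a median difference of 0.14, against 0.01. Some other lists leaned the same way, with 45 of 54 cytosolic and 58 of 77 mitochondrial ribosomal protein genes above 0. So did 12 of 15 import channel genes, all 7 carriers and 6 of 8 antioxidant enzymes. The cytosolic ribosomal median was 0.05. Other lists did not lean, with 12 of 25 complex III and IV assembly genes and 4 of 10 further complex I and ATP synthase factors above 0. The same held for 6 of 16 tricarboxylic acid cycle, 7 of 15 beta-oxidation and 8 of 15 regulator genes. The lean was thus shared by some mitochondrial and ribosomal lists and not by others. The group means of SSKO arrays lay between those of control basal and luminal arrays for 68 of 91 members. Both comparisons share the control basal arrays, so a low control array moves both in the same direction. Without control basal array 2 or without control basal array 3 the median was 0.08, and without control basal array 1 it was 0.24. Leaving out the 3 arrays bright for endothelial markers, control basal array 1 and SSKO arrays 1 and 3, gave 0.27. Only SSKO array 2 then remained in its group. With each array centred on its own median the members' median was 0.09. The summed intensity of the 7 mature luminal markers was 19301 to 22089 in SSKO arrays, above the 12582.5 to 16779.5 of control basal arrays and far below the 88431 to 90805 of luminal arrays. The part of luminal cells in the SSKO shift was not tested.

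Individual members differed little in the SSKO arrays. Atp5k, the subunit e of ATP synthase, had the smallest p, with log2 values of 9.18, 8.81, 8.30 and 9.12 in control basal and 9.38, 9.48 and 9.41 in SSKO basal arrays. The 3 SSKO values lay above all control basal values, at a difference of 0.57 ± 0.19 (adjusted p = 1.00). Its unadjusted p in the limma fit across all genes was 0.0117. Its luminal values were 9.30, 9.21 and 9.29. Ndufb10, a membrane-arm subunit of complex I, read 8.54, 8.09, 8.29 and 8.34 in control basal and 8.58, 8.61 and 8.97 in SSKO basal arrays, a difference of 0.40 ± 0.14 (adjusted p = 1.00). Ndufa3, of the same arm, read 10.37, 9.57, 10.24 and 10.17 against 10.50, 10.48 and 10.48, also 0.40 ± 0.18 (adjusted p = 1.00). These were the 3 members whose SSKO arrays all lay above the control basal arrays (2.45% of all genes did so), and none had all SSKO arrays below (2.02%). Cox6a1 followed with 0.32 ± 0.15. On the negative side Ndufaf5 differed by -0.17 ± 0.15, Ndufs1 by -0.10 ± 0.23, Uqcrh by -0.08 ± 0.15 and Sdha by -0.06 ± 0.12, all with an adjusted p of 1.00 in limma. By complex the median differences were 0.19, -0.03, 0.16, 0.09 and 0.14 for complexes I to V and 0.10 for the assembly factors.

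SSKO basal cells stayed below luminal cells. Compared with control luminal arrays, 31 of 91 members were lower (all genes 23.3%) and 3 were higher (19%), with a median of -0.39, against -0.03 for all genes. Complex I contributed 16 of the 31. All SSKO arrays lay below all luminal arrays for 48 members (all genes 30.2%) and above them for 6 (24.2%). The lower members with the smallest p were Ndufa7 (-0.98, adjusted p = 1.61e-04) and Sdha (-0.93, adjusted p = 1.65e-04), then Ndufaf3 (-0.92, adjusted p = 5.25e-04) and Ndufv3 (-0.90, adjusted p = 9.67e-04), with their values in every array given above or plotted. Uqcrfs1, Ndufa6, Ndufv1 and Ndufaf7 came next, at -0.69, -0.78, -0.61 and -0.53. The first 4 kept their call in each setting tried. The next 4 lost it without the 3 arrays bright for endothelial markers, at -0.49, -0.65, -0.49 and -0.60. That setting leaves SSKO array 2 alone in its group. Ndufa6 also lost its call with the endothelial covariate (adjusted p = 0.0588). Ndufaf4 was higher in SSKO basal than in luminal cells by 1.32 (adjusted p = 8.14e-04), Ndufaf2 by 0.44 (adjusted p = 0.0428) and Cox4i2 by 0.36 (adjusted p = 0.0498). The last 2 calls were lost on leaving out any SSKO array and in several other settings, whereas Ndufaf4 was called in each. Ndufa11, a complex I subunit, was 0.57 higher in SSKO basal than in luminal cells and was not called. It was called in some other settings, among them array weights (limma adjusted p = 0.0287) and the replicate block (limma adjusted p = 0.0202). The count of 31 was sensitive to single arrays. It fell to 10 (11%) without luminal array 1, where 19.6% of all genes were lower, and to 10 (11%) without luminal array 2 (all genes 19.9%). Without SSKO arrays 1, 2 and 3 it was 16 (17.4%), 15 (16.3%) and 13 (14.3%), against 20.8%, 20% and 19.2% of all genes. In each of these settings the members' share lay below that of all genes. The excess of lower members by count was therefore lost in each. Without luminal array 3 the count was 35 (38.5%, all genes 21.7%). The median difference of members stayed at -0.49 to -0.33 on leaving out 1 array. The count without the 3 arrays bright for endothelial markers is not weighed here, because SSKO array 2 alone then remains in its group. The control basal and SSKO comparisons with luminal cells share the luminal arrays.

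Within the control basal and the luminal group, most members had their extremes in the same arrays. The members' mean log2 value, relative to the mean of all 10 arrays, was 0.09, -0.34, -0.35 and -0.12 in control basal arrays 1 to 4, and -0.02, -0.02 and -0.09 in SSKO arrays. In luminal arrays it was 0.38, 0.37 and 0.10. The same quantity over all 15815 genes stayed between -0.03 and 0.02. Control basal array 1 had the highest of the 4 control values for 69 of 91 members, and array 2 or array 3 had the lowest for 36 and 41. Luminal array 3 was the lowest of its group for 74 of 91. The SSKO arrays were more even, with the highest value in arrays 1, 2 and 3 for 38, 36 and 17 members and the lowest for 24, 21 and 46. Control basal array 1 and luminal array 3 therefore came close, at 0.09 and 0.10, while the other arrays of the 2 groups were far apart. Luminal array 3 is the array with the higher basal marker sum, and control basal array 1 has high endothelial markers. Control basal array 1 also had the highest luminal progenitor and alveolar marker sum of its group, 6544 against 2223 to 4017. The fibroblast marker sum was 28290 in control basal array 3, against 14092 to 14994 in the other control basal arrays. The part of any of these markers in the levels was not tested. The mitochondrial ribosome, a separate list of 77 genes, had its lowest and highest levels in the same arrays, from -0.46 and -0.39 in control basal arrays 2 and 3 to 0.35 in luminal arrays 1 and 2. The 54 cytosolic ribosomal protein genes, a list added with values known, spanned -0.13 to 0.06 in control basal arrays and -0.07 to 0.17 in luminal arrays.

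**Figure D4:**
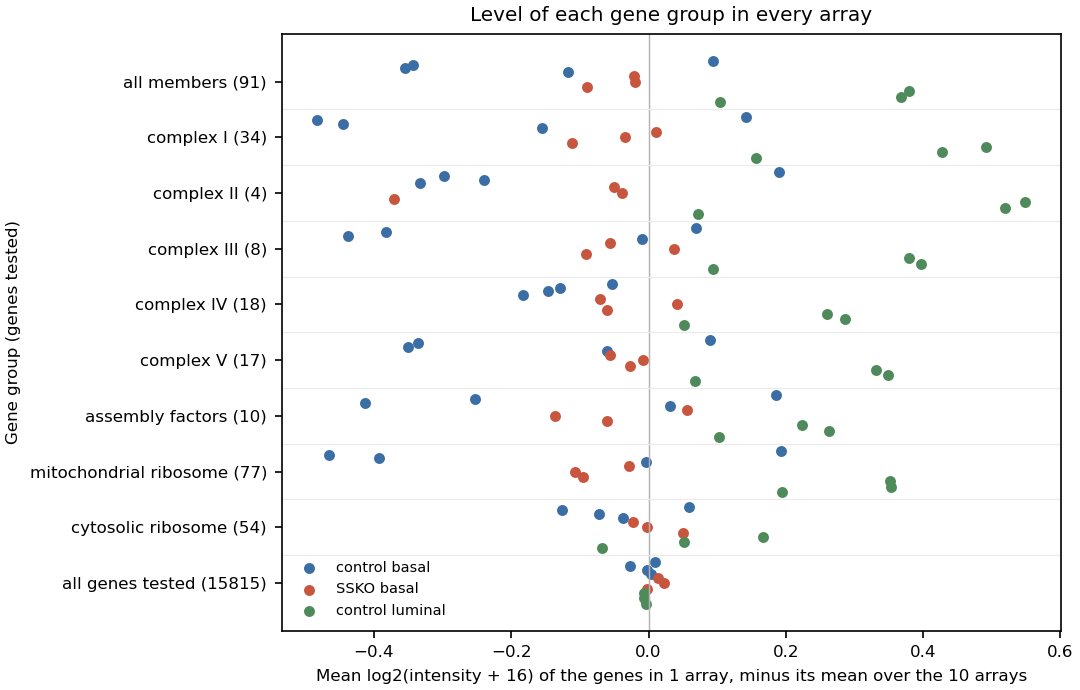
Mean log2(intensity + 16) of the genes of each group in each array, minus the mean over the 10 arrays, with 1 point per array coloured by group. The members spread from -0.35 to 0.38 while all genes tested stay between -0.03 and 0.02; 1 control basal and 1 luminal array lie side by side near 0.1.

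Genes around the chain were read from lists of general knowledge. None of the genes tested in these lists was called between SSKO and control basal cells, where 0.0379% of all genes were, so the luminal comparison is described. Among 25 factors that assemble complexes III and IV or carry cytochrome c, 12 were higher and 2 lower in luminal cells, with a median of 0.48. Coa3, an early complex IV factor, rose by 1.59 ± 0.22 (adjusted p = 1.17e-04), Cox14 by 1.00 ± 0.14 and the copper chaperone Cox17 by 0.90 ± 0.13. The copper-inserting Cox11 fell by 0.89 ± 0.17 (adjusted p = 0.00107) and the complex III factor Ttc19 by 0.49 ± 0.12 (adjusted p = 0.00521). Of 10 further complex I and ATP synthase factors 4 were higher, among them Atpaf1 (1.04 ± 0.21), Timmdc1 (0.64 ± 0.16) and Nubpl (0.53 ± 0.10). The 13 mitochondrially encoded subunits matched no probe set with a single gene name and were not analysed here.

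Of 77 mitochondrial ribosomal protein genes 34 (44.2%) were higher and 2 (2.60%) lower, with a median of 0.44. Mrpl40 (1.88 ± 0.29), Mrpl14 (1.50 ± 0.17) and Mrpl10 (1.08 ± 0.15) rose, while Mrps6 fell by 0.71 ± 0.12 and Mrpl48 by 0.44 ± 0.12. Without luminal array 1 the count of higher genes was 22, where 20.7% of all genes were called higher. Of the 54 cytosolic ribosomal protein genes 3 (5.56%) were higher and 1 (1.85%) lower, with a median of 0.12. Against 24.6% of all genes, the share called higher lay above for the mitochondrial ribosome and below for the cytosolic one.

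Pathways that feed electrons to the chain were read next. Of 15 fatty acid beta-oxidation genes 7 (46.7%) were higher and 1 (6.67%) lower, with a median of 0.41. Cpt2, the inner-membrane carnitine palmitoyltransferase, read 7.42, 6.36, 7.33 and 7.80 in control basal and 9.60, 9.71 and 9.65 in luminal arrays, a rise of 2.42 ± 0.29 (adjusted p = 4.82e-05). Acads, the short-chain dehydrogenase, rose by 1.58 ± 0.20, and Etfb, of the flavoprotein that takes electrons from it, by 1.18 ± 0.16, but Etfdh, which hands them to ubiquinone, fell by 0.50 ± 0.17 (adjusted p = 0.0329). The Etfdh call was lost on leaving out any 1 of 5 arrays, control basal 1, 3 or 4 or luminal 1 or 2. Of 16 tricarboxylic acid cycle and pyruvate dehydrogenase genes 4 (25%) were higher and none lower, a share of higher genes close to the 24.6% of all genes. Fh1 (0.87 ± 0.20), Suclg1 (0.73 ± 0.15) and Suclg2 (0.73 ± 0.17) were among them.

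**Figure D5:**
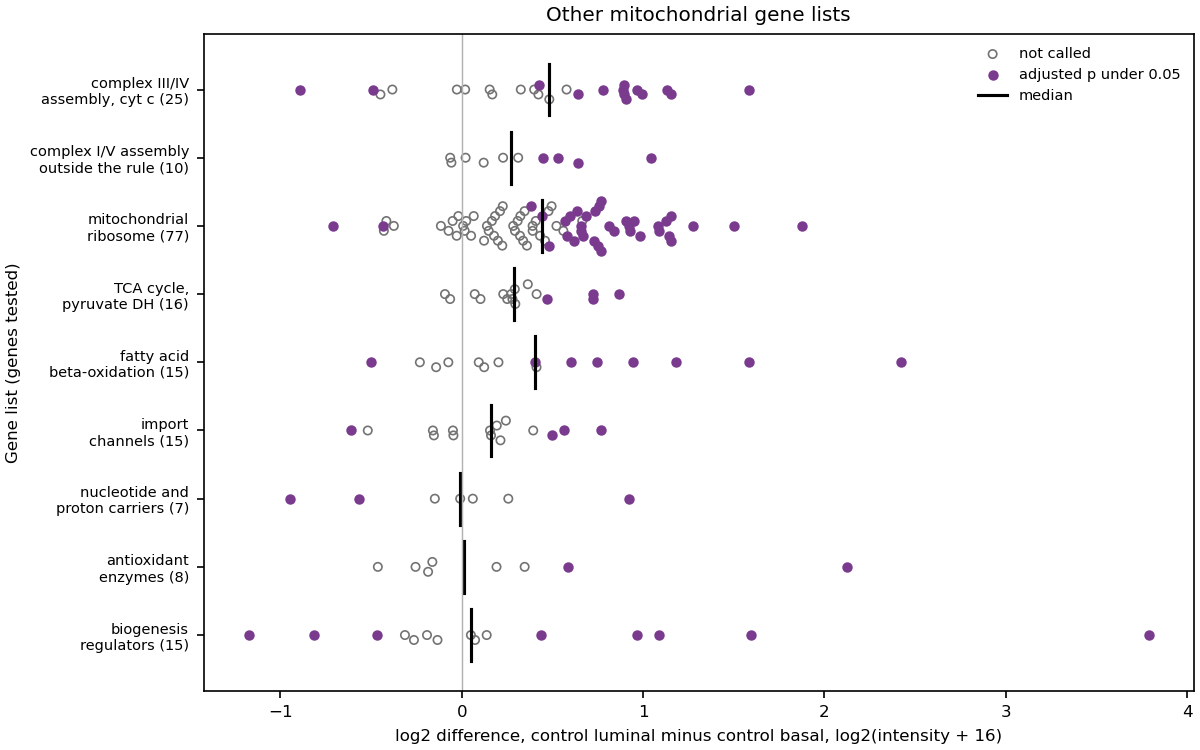
Difference in log2(intensity + 16), control luminal minus control basal, for each tested gene of 9 other mitochondrial lists, with filled points at a limma adjusted p under 0.05 and black lines at list medians. The medians of the assembly, ribosome and beta-oxidation lists lie between 0.27 and 0.48, and those of the carrier, antioxidant and regulator lists between -0.01 and 0.05.

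Of the regulators of mitochondrial biogenesis 5 of 15 (33.3%) were higher and 3 (20%) lower, against 24.6% and 19.7% of all genes, with a median of 0.05. Esrrb, an estrogen-related receptor, was called higher, with 5.89, 6.62, 6.31 and 6.11 in control basal and 9.58, 11.09 and 9.40 in luminal arrays. All its control basal values lay below the filter's limit of 6.74, so the gene passed through its luminal arrays and no exact size of its rise is given. Its relative Esrrg rose by 1.60 ± 0.14 (adjusted p = 4.01e-06), and Tfb1m, a mitochondrial rRNA methyltransferase, by 1.09 ± 0.22. The co-activators Pprc1 and Ppargc1b fell by 1.17 ± 0.13 (adjusted p = 2.06e-05) and 0.47 ± 0.17 (adjusted p = 0.0408), and Nfe2l2 fell by 0.82 ± 0.12 (adjusted p = 2.69e-04). The Ppargc1b call was lost without control basal array 2 or 4 or luminal array 1 or 2. Nrf1, whose motif was counted above, differed by -0.19 ± 0.12 (adjusted p = 0.251).

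Carriers and protective enzymes form short lists whose shares of calls give no result about them. Of 7 nucleotide and proton carriers 1 (14.3%) was higher and 2 (28.6%) lower, and of 8 antioxidant enzymes 2 (25%) were higher and none lower. Among the carriers, the outer-membrane channel Vdac1 rose by 0.92 ± 0.15 (adjusted p = 3.70e-04). The adenine nucleotide translocator Slc25a4 read 12.20, 11.76, 11.55 and 11.63 in control basal and 10.89, 11.07 and 10.56 in luminal arrays and fell by 0.95 ± 0.18 (adjusted p = 0.00118), and Ucp3 fell by 0.57 ± 0.16 (adjusted p = 0.0154). The other translocator named, Slc25a5, differed by -0.15 ± 0.14 (adjusted p = 0.465). Of the antioxidant enzymes, Prdx3 rose by 2.13 ± 0.29 and Txnrd2 by 0.59 ± 0.14. Of 15 import channel genes 3 (20%) were higher and 1 (6.67%) lower, against 24.6% and 19.7% of all genes, so no excess was seen. The higher ones were Timm8b (0.77 ± 0.18), Timm17b (0.56 ± 0.16) and Timm44 (0.50 ± 0.13). Timm10 was lower by 0.61 ± 0.21 (adjusted p = 0.0338), a call lost without any 1 of 6 arrays, all but control basal array 3. The Ucp3 call was lost without luminal array 1 or 3, and that for Timm17b without luminal array 1.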

How the data were processed

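RNA from 10 sorted samples was measured on Affymetrix mouse gene arrays. The authors deposited linear intensity values for 28815 probe sets, made with Affymetrix Expression Console 1.1 and PLIER 2.0 per the submitters' processing notes. Any scaling between arrays is not stated in these notes, and array medians ran from 205 to 228. The platform annotation named 1 gene for 21780 probe sets, several for 1605 and none for 5430.

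Values were analysed as log2(intensity + 16), so fold changes of dim probe sets are understated. The dimmest 25% of probe sets were dropped, the brightest of each gene was kept, and 15815 genes were fitted over the 3 groups with limma 3.58.1 in R 4.3.3 (7 residual degrees of freedom, Benjamini-Hochberg adjustment, calls at adjusted p under 0.05). The scripts were tested on simulated data. Isoform ratios were compared by two-sided exact permutation tests over 35 splits. Differences are given as value ± SE.

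Members, gene lists, motifs and markers were chosen with earlier results of these data known, and the cytosolic ribosome list was added afterwards. Named were, for luminal against basal cells, up to 4 called members per complex and direction with the largest change and no overlap, all Sdh genes, isoform pairs and c ring genes. For SSKO comparisons these were up to 8 called members per direction, or the 4 of smallest p, and for other lists up to 3 called genes per direction, or the 2 of smallest p. Uqcrc1, Cox5a, Cox5b, Cox6c, Cox7b, Ndufb11, Ndufa13, Ndufs7, Ndufs8, Atp5a1, Atp5b, Atp5c1, Atp5d, Atp5h and Cox7a2l were named outside the rule, after their values were seen, as were the luminal values of Ndufv1, Ndufv3, Ndufs1, Ndufa11, Uqcrh, Ndufaf5, Ndufaf7, Nrf1 and Slc25a5. Alternatives covered pseudocounts, filters, scaling, probe set averaging, array weights, a variance trend, an endothelial covariate, the replicate number and left-out arrays. Promoter windows came from RefSeq (GRCm38.p6). The labels give no batch.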

Additional observations from a re-analysis of the deposited data

Results flagged for a closer look

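In the 4 control basal arrays, the single value of Uqcrfs1 in array 3 stood apart from the others, at a log2 value of 8.63 against 8.95 to 8.98, and lowered the control basal mean of that gene. The beta-oxidation gene Etfb stood apart in control basal array 2, at 10.02 against 10.53 to 10.63. Atp5a1 stood apart in control basal array 1, at 12.46 against 12.15 to 12.19, and Ndufb11 in control basal array 2, at 10.66 against 10.92 to 10.97. The gap to the nearest array made up 0.909, 0.835, 0.850 and 0.845 of the range of the 4 arrays for these genes in turn, more than the critical value of Dixon's test. A total of 121 values of named genes and gene groups were checked in this way, and chance alone sets about 1 group in 20 apart. Control basal arrays 2 and 3 are those with the lowest mean level of the respiratory chain members, and array 1 has the highest.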

How the results depend on the processing

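Across 23 alternative settings the median member difference kept its sign in each comparison. It was 0.42 to 0.59 (luminal minus control basal), 0.08 to 0.27 (SSKO minus control basal) and -0.49 to -0.33 (SSKO minus luminal). The 0.27 came from the setting without the 3 endothelial-bright arrays, which leaves SSKO array 2 alone in its group. Of the called members that the naming rule chose, 17 of 27 kept their call in every setting for luminal against basal cells and 5 of 11 for SSKO against luminal cells. Of the called members named outside it, 7 of 12 kept their luminal call. Leaving out 1 array gave 31 to 62 members higher in luminal than control basal cells (34.1% to 67.4%, all genes 20.7% to 25.4%). Lower were 1 to 3 (1.1% to 3.26%, all genes 17.1% to 19.4%). In SSKO against luminal cells 1 to 2 were higher (1.09% to 2.2%, all genes 16% to 18.3%). There 10 to 35 were lower (11% to 38.5%, all genes 19.2% to 21.7%). The lists below have the same shares of all genes beside them. For the mitochondrial ribosome, leaving out 1 array gave 22 to 46 higher and 2 to 4 lower in luminal cells. In SSKO than luminal cells it gave 1 to 2 higher and 12 to 26 lower. The other lists together ran from 34 to 45 higher and 5 to 10 lower in luminal cells, and 5 to 7 higher and 26 to 36 lower in SSKO than luminal cells. No member or listed gene was called between SSKO and control basal cells in any of these settings.

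In luminal against basal cells, dropping the dimmest 50% of probe sets left 1 member lower, Ndufaf4, and without the 3 endothelial-bright arrays the other lists had 5 genes lower in place of 9. In SSKO against luminal cells, 1 member was higher in place of 3 with the endothelial covariate, with median centring or without the filter, and 6 were lower in place of 31 without the 3 endothelial-bright arrays. There the other lists had 3 higher and 15 lower in place of 9 and 37, and the mitochondrial ribosome 1 higher and 11 lower in place of 2 and 27. Array weights gave 14 higher for the other lists and 4 for the ribosome, the compared groups alone 4, and the endothelial covariate and median centring 1 each. The cause of these changes was not tested. In SSKO against luminal cells, the setting without the 3 endothelial-bright arrays leaves SSKO array 2 alone in its group. No result is drawn from its counts there. Choosing members by the older annotation symbols gave the same genes and counts.

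Some differences between SSKO and control basal cells that were never called changed sign. Without the 3 endothelial-bright arrays, where 1 SSKO array remains, Ndufaf5 became 0.0725, Uqcrh 0.12 and Ndufs1 0.00672. Leaving out 1 array gave -0.128 to 0.0154 for Sdha, -0.24 to 0.11 for Ndufs1, -0.00557 to 0.21 for Vdac1 and -0.0149 to 0.18 for Slc25a5. In luminal against control basal cells, Uqcrh, never called, became -0.0238 with quantile normalization and ran from -0.0584 to 0.22 on leaving out 1 array, and Uqcrc1 ran from -0.0246 to 0.26.

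The labels do not say whether arrays with the same replicate number are linked. The correlation of same-numbered deviations was 0.635, 0.464 and 0.047 between SSKO and control basal arrays. Different numbers gave -0.437 to 0.427 there. Between luminal and control basal arrays it was -0.081, -0.079 and -0.06, where different numbers gave -0.31 to 0.394. A link between same-numbered arrays was not tested. With the replicate block, 53 members were higher (58.2%, all genes 24.5%) and 2 lower (2.2%, all genes 19.5%) in luminal than control basal cells. None was called in SSKO against control basal cells. In SSKO than luminal cells 39 were lower (42.9%, all genes 24.1%) and 3 higher (3.3%, all genes 19.5%). The medians were 0.51, 0.16 and -0.39.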

Other observations

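Members of 1 gene group did not always vary together among the control basal arrays. Cox7a2l, a factor that joins complexes III and IV into supercomplexes, was lowest on the probe set used where most members were highest. Its log2 values were 8.73, 8.98, 9.76 and 9.37 in control basal, 8.70, 9.21 and 9.58 in SSKO basal and 9.57, 9.59 and 9.78 in luminal arrays. The luminal minus control basal difference of 0.43 ± 0.25 was not called (limma adjusted p = 0.198). A second, dimmer Cox7a2l probe set was lowest in control basal array 2 instead. Its linear intensities were 340, 303, 407 and 411 in control basal arrays 1 to 4, so the low value in array 1 rests on 1 probe set. The restricted complex IV isoforms had their higher control basal means in arrays 2 and 3, at 0.20 and 0.11 relative to the 10-array mean, against -0.17 and -0.20 in arrays 1 and 4. The common complex IV subunits had 0.08, -0.33, -0.38 and -0.19 in the same 4 arrays. These genes were singled out after their values were seen.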
